A study of Mus musculus with 2 samples.

Results

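Meg3, Rian and Mirg are long noncoding RNAs of the imprinted Dlk1-Dio3 region on mouse chromosome 12. They were taken by exact symbol, as 3 of the 32285 genes counted, having been chosen by their level in early goblet nuclei of the colon, where an earlier examination of these data had placed them among the leading transcripts. Their level in goblet nuclei is therefore given below as a description, without a test. Nuclei of the colon were profiled by single-nucleus RNA sequencing in 1 WT and 1 HIF-1α KO library, and the counts are unique molecular identifiers (UMIs), each standing for 1 captured RNA molecule. After the filter on nuclei, at least 1 UMI of a member was found in 1688 of the 4884 nuclei of the WT library and in 1222 of the 4702 of the HIF-1α KO library.

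Imprinted genes are read from only the maternal or the paternal chromosome. In the Dlk1-Dio3 region the maternal chromosome gives rise to a row of noncoding RNAs that point the same way, among them Meg3, Rian and Mirg, whereas the paternal chromosome expresses the protein-coding genes Dlk1, Rtl1 and Dio3. Meg3 is a nuclear RNA best known from the brain and from cell growth control, Rian carries small nucleolar RNAs, and Mirg carries a large group of microRNAs. Counts of UMIs do not tell the parental alleles apart.

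The HIF-1α KO mice (Ncr1cre+ Hif-1α fl+/fl+) carried loxP-flanked alleles of Hif-1α, the oxygen-regulated subunit of a transcription factor, and a Cre recombinase under the promoter of Ncr1, the gene of the NKp46 receptor of innate lymphoid and NK cells. The deletion is thus directed at NKp46+ lymphoid cells and not at the goblet, neuronal or stromal nuclei described here. WT littermates served as controls. Mice of both genotypes were 8 to 12 weeks old and drank 2% dextran sodium sulfate (DSS), which injures the colon epithelium, for 3 days followed by 4 days of recovery, over 4 cycles, with the endpoint at day 28.

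Each library was a pool of frozen colon from 3 animals whose nuclei cannot be told apart, so that the comparison of genotypes rests on 1 library each, has no replicate check and carries no test. Intervals given in brackets are exact 95% intervals that cover counting error only. The WT library held 13259430 UMIs in the nuclei kept, with a median of 2058.5 per nucleus, and the HIF-1α KO library 23605502, with a median of 4197, and the libraries had 3 cell barcodes in common. Ncr1 itself had 1 UMI in WT and 0 UMIs in HIF-1α KO nuclei, so the deletion could not be checked in these data.

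In the GRCm38 assembly with GENCODE M21 genes, all 3 members lay on the plus strand. Meg3 (ENSMUSG00000021268) spanned chr12:109541001-109571726 and Rian (ENSMUSG00000097451) chr12:109603940-109661716, beginning 32.214 kb after the end of Meg3. Mirg (ENSMUSG00000097391) spanned chr12:109729764-109749460, beginning 158.038 kb after the end of Meg3. Between Rian and Mirg lay B830012L14Rik (ENSMUSG00000098202), a lincRNA of 7.002 kb on the same strand at chr12:109695586-109702587, which was added to the description after its values had been seen.

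The start of Meg3 is shown because it is the first of this row of transcripts and the only one whose 300-base window held the promoter letters searched for other than CCAAT. The window, from RefSeq on GRCm38.p6, runs from 250 bases before to 50 bases after the start of the gene at chr12:109540746-109541045 on the plus strand. Capitals mark, in order, CCAAT at position -100 from the start, the cAMP response element TGACGTCA at -57, and the run that holds the TATA letters TATATAA at -27.
Meg3: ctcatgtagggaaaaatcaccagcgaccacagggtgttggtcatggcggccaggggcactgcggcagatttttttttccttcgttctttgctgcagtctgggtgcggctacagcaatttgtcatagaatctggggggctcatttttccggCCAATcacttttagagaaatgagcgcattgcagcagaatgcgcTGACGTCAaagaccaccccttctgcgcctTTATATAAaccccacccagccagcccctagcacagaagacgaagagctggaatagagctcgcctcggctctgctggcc
TGACGTCA, searched on both strands, was found in 1.79% of the 32851 windows of this length in the RefSeq set, TATATAA in 3.24%, TATAAA (which overlaps TATATAA in the Meg3 window) in 13.6% and CCAAT in 37.4%. The window held 13 CG dinucleotides, against a median of 7 over all windows. A second Meg3 start, the Rian start and the Mirg start held none of TGACGTCA, TATAAA and TATATAA, and the Rian window held 0 CG dinucleotides. The window of the Mirg start lay 5217 bases inside the GENCODE gene and held CCAAT at -184. ACGTG, the core letters bound by HIF, were absent from all 4 windows and present in 19.6% of all windows, which says only that these letters are not there.

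The plus strand from Dlk1 to Mirg holds 106 mature microRNAs from 54 hairpins in RefSeq, and the following are shown because they lie within the members themselves. Capitals mark the seed, bases 2 to 8, which pairs with target RNAs. The sequence of miR-770-5p comes from an exon of Meg3, that of miR-370-3p from an intron of Rian and that of miR-134-5p from an exon of Mirg, while miR-453 and miR-496a-5p, both in introns of Mirg, share 1 seed.
mmu-miR-770-5p: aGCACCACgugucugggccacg
mmu-miR-370-3p: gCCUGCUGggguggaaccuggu
mmu-miR-134-5p: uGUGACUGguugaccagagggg
mmu-miR-453: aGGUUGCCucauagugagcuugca
mmu-miR-496a-5p: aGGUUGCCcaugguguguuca
Within the members lay 3 mature microRNAs in Meg3, 6 in Rian and 26 in Mirg, whereas 45 lay between B830012L14Rik and Mirg and 25 between Meg3 and Rian. The count tables list 0 microRNA genes, so only the long transcripts were measured here.

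Nuclei were grouped into 30 clusters without the genes of the region, and 17 classes were named by other marker genes, each name meaning only that a class resembles that cell type. A further 6 clusters, holding 37.5% of the nuclei in WT and 25.8% in HIF-1α KO, were left unnamed. The early goblet-like class (clusters 9, 12 and 14) counted 407 nuclei in WT against 655 in HIF-1α KO, and the mature goblet-like class (cluster 6) 189 against 302. The goblet clusters were split into early and mature by the marker lists compared here. The marker values therefore describe the split and do not test it. All 5 mature markers were lower in the early class in both libraries. Clca1, a secreted goblet protein, had 291 against 5105 CPM in WT and 581 against 4743 CPM in HIF-1α KO. CPM are the UMIs of a gene divided by all UMIs of the class and scaled to a common total. The early markers differed less clearly. Of 10 listed, 4 in WT and 7 in HIF-1α KO had a ratio of early over mature class whose interval lay above 1. Among them was Kit, a receptor tyrosine kinase, with 128 against 50.04 CPM in WT and 152 against 38.8 CPM in HIF-1α KO. The interval lay below 1 for 2 in WT and 1 in HIF-1α KO, and included 1 for the rest. Atoh1, the factor that starts the secretory lineage, was lower in WT with 46.5 against 150.1 CPM, and Hepacam2 was lower in both libraries with 609 against 1197 CPM and 701 against 879 CPM. The name early goblet therefore stands mainly for goblet nuclei poor in mature transcripts.

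Meg3 was highest in enteric neuron-like nuclei and next in early goblet-like nuclei in WT. Summed over a class and library, the Meg3 level was 10144 CPM (9638 to 10669) in the 26 WT neuron nuclei and 9275 CPM (8854 to 9711) in the 22 HIF-1α KO neuron nuclei. In early goblet nuclei the Meg3 level was 1629 CPM (1556 to 1705) from 1856 UMIs in WT and 901 CPM (868 to 935) from 2790 UMIs in HIF-1α KO. Mesothelial-like nuclei, which line the outer surface of the gut and of which there were only 18 and 13, had 911 CPM (687 to 1186) and 1479 CPM (1155 to 1866). The order of these classes thus differed between the libraries, with early goblet above mesothelial nuclei in WT and below them in HIF-1α KO, and in both cases the intervals of the neighbours were separate. These intervals take UMIs as independent and leave out the spread between nuclei. Of the mesothelial Meg3 UMIs, 19 of 55 in WT lay in 1 nucleus and 51 of 71 in HIF-1α KO in 4 nuclei. The change of order therefore rests on few nuclei and is a description. Fibroblast-like nuclei had 387 CPM in WT and 426 CPM in HIF-1α KO, where their interval overlapped that of the 9 enteric glia-like nuclei above them.

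Other epithelial nuclei held far less Meg3. Mature goblet nuclei had 229.9 CPM (197 to 267) in WT and 198 CPM (178 to 219) in HIF-1α KO, crypt enterocyte-like nuclei 94.6 and 43.1 CPM, and surface absorptive enterocyte-like nuclei, the lowest class in WT, 76.3 and 38.5 CPM. From fibroblasts down to surface enterocytes, all neighbours in the WT order had overlapping intervals. The early goblet class held 11.7 times the Meg3 CPM of all other named epithelial nuclei together in WT and 11.2 times in HIF-1α KO, and 7.09 and 4.55 times that of mature goblet nuclei. As the members were chosen for this contrast, these ratios are a description.

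Rian and Mirg were also highest in neurons. The Rian level was 1063 CPM (904 to 1242) in WT and 1343 CPM (1186 to 1515) in HIF-1α KO neuron nuclei, 381 CPM (346 to 418) and 179 CPM (165 to 195) in early goblet nuclei, and 105 and 101 CPM in fibroblasts. Mesothelial nuclei had 215 CPM (115 to 368) of Rian in WT, below early goblet nuclei, and 312.5 CPM (175 to 515) in HIF-1α KO, above them, and the intervals of these neighbours overlapped in both libraries. In mature goblet nuclei the Rian level was 58.2 CPM in WT and 33.1 CPM in HIF-1α KO. Mirg, the sparsest of the 3 in UMIs with 249 in WT and 277 in HIF-1α KO, reached 229 CPM (158 to 320) and 269.6 CPM (202 to 353) in neurons and 99.2 CPM (81.7 to 119) and 50.4 CPM (42.8 to 58.9) in early goblet nuclei. Mirg in WT fibroblasts, the next class, was 25.9 CPM from 14 UMIs, and its interval of 14.2 to 43.4 CPM overlapped that of the class below. In HIF-1α KO the interval for Mirg in early goblet nuclei overlapped that in mesothelial nuclei, where the level rested on 2 UMIs.

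**Figure D1:**
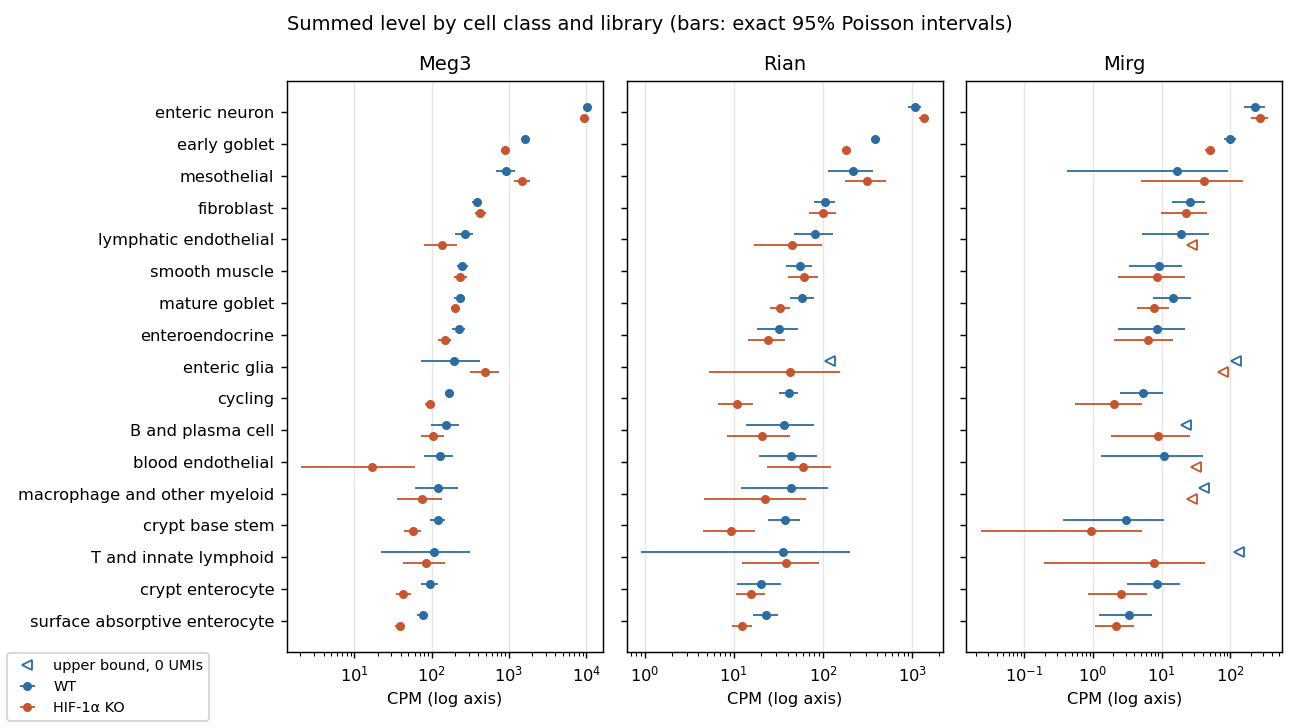
Summed levels of Meg3, Rian and Mirg in CPM (log axis) in the 17 named classes, with WT in blue, HIF-1α KO in orange and exact 95% Poisson intervals. Enteric neurons lie highest for all 3 genes, at 10144 and 9275 CPM for Meg3, and early goblet nuclei lie above every other epithelial class. Open triangles give the upper bound where a class had 0 UMIs.

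Within the early goblet class the level of Meg3 was carried by a minority of nuclei. Of 407 WT nuclei, 248 had 0 Meg3 UMIs, 70 had 1 to 2, 29 had 3 to 9 and 60 had at least 10, with a highest count of 99. Of 655 HIF-1α KO nuclei, 482 had 0, 85 had 1 to 2, 20 had 3 to 9 and 68 had at least 10, with a highest count of 128. Nuclei with at least 10 Meg3 UMIs, called Meg3-high here, thus made up 14.7% (11.4 to 18.6) of the class in WT and 10.4% (8.15 to 13.0) in HIF-1α KO, and they held 85.6% and 92.8% of its Meg3 UMIs.

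The same few nuclei held most of the other members. Meg3-high nuclei carried 83.4% of the Rian UMIs of the early goblet class in WT and 91.4% in HIF-1α KO, and 81.4% and 96.8% of its Mirg UMIs, although neither gene was used to pick them. Their total depth was close to that of nuclei with 0 Meg3 UMIs, with medians of 2393.5 against 2350 UMIs in WT and 4635.5 against 4200 in HIF-1α KO.

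A fixed count favours the deeper library, so each nucleus was also thinned to 1000 UMIs. At least 5 Meg3 UMIs then remained in 57 of 407 WT early goblet nuclei (10.8 to 17.8%) and in 42 of 654 HIF-1α KO nuclei (6.42%, with 4.67 to 8.58%). None of the thinned crypt enterocyte-like or B and plasma cell-like nuclei reached that count in either library, with upper bounds of 1.30% and 3.77% in WT and 0.809% and 2.46% in HIF-1α KO. The thinned shares of early goblet nuclei had separate intervals and were higher in WT, while the unthinned shares had overlapping ones.

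Other classes were then compared. All 26 WT and 21 of 22 HIF-1α KO neuron nuclei were Meg3-high, and over all neuron nuclei the median was 45.5 and 64 Meg3 UMIs and the highest count 210 and 248. Fibroblasts had frequent single UMIs but few high nuclei, with 0 Meg3 UMIs in 123 of 226 WT nuclei, 1 to 2 in 85 and at least 10 in 2. The mature goblet class had 3 Meg3-high nuclei of 189 in WT and 11 of 302 in HIF-1α KO. Cluster 21 of the cycling class had a minority of the same kind, with 5 of 65 nuclei Meg3-high in WT (7.69%) and 3 of 57 in HIF-1α KO (5.26%), a highest count of 63 in each and a summed Meg3 level of 622 and 327 CPM. In the Meg3-high cycling nuclei, all from this cluster, the 13 goblet markers summed to 8692 CPM in WT and 5778 CPM in HIF-1α KO, against 1868 and 2381 CPM in cycling nuclei with 0 Meg3 UMIs. The latter came from the whole cycling class, so cluster was not held fixed. Cluster 3 made up 391 of its 456 nuclei in WT and 256 of 313 in HIF-1α KO. Over the whole libraries there were 99 Meg3-high nuclei in WT and 121 in HIF-1α KO, of which 60 and 68 were early goblet and 26 and 21 neuronal.

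**Figure D2:**
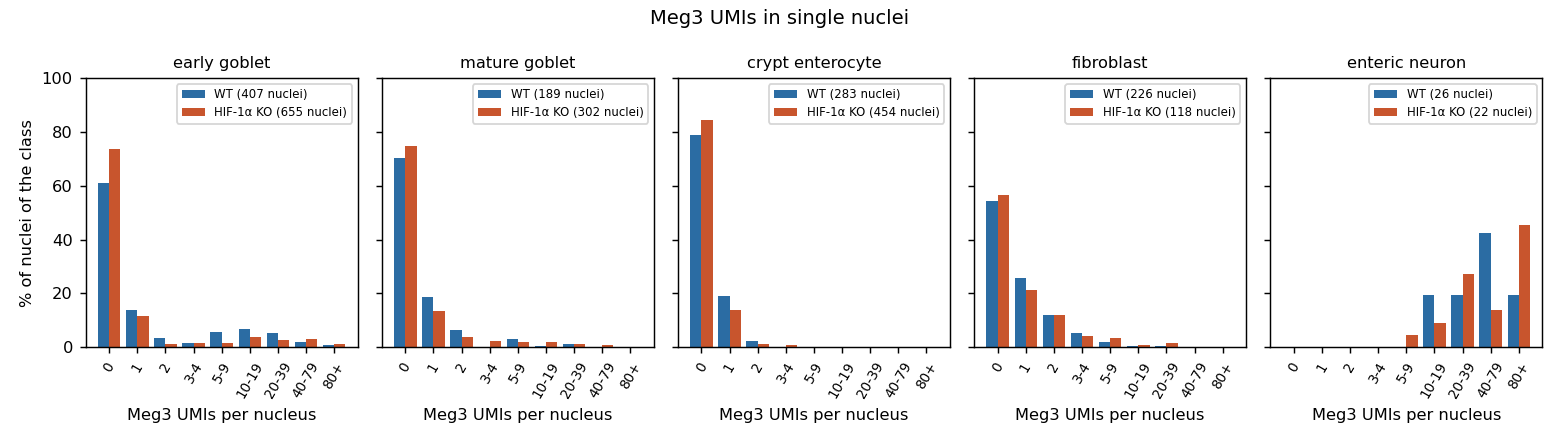
Percent of the nuclei of a class by their number of Meg3 UMIs, in WT (blue) and HIF-1α KO (orange). Early goblet nuclei fall into many with 0 UMIs (248 of 407 in WT and 482 of 655 in HIF-1α KO) and a tail of 60 and 68 nuclei at 10 or more, while enteric neurons lie at high counts throughout and crypt enterocytes hold at most a few UMIs.

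Among the clusters of the early goblet class, cluster 9 held most of the Meg3-high nuclei. It had 32 of 120 nuclei in WT (26.7%) and 48 of 289 in HIF-1α KO (16.6%), against 13 of 183 (7.10%) and 3 of 162 (1.85%) in cluster 12 and 15 of 104 (14.4%) and 17 of 204 (8.33%) in cluster 14. Summed Meg3 was 2703 CPM in WT and 1542 CPM in HIF-1α KO in cluster 9, 926 and 155 CPM in cluster 12 and 1435 and 521 CPM in cluster 14. Cluster 9 also had the highest mean log2 ratio of the early markers (0.48, against 0.01 in cluster 12 and -0.01 in cluster 14) and the lowest of the mature markers (-2.65, against -2.50 and -0.91). The shares of Meg3-high nuclei did not follow the mature markers over the clusters. Cluster 12 was close to cluster 9 in these markers but had the smallest share in both libraries, below cluster 14. Cluster 12 was also the shallowest, with medians of 1886 UMIs per nucleus in WT and 2803 in HIF-1α KO. Cluster 9 had 2538 and 4310, and cluster 14 had 2685 and 5265. A fixed limit of 10 UMIs is harder to reach in shallower nuclei, and the shares by cluster were not taken at equal depth.

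Co-detection within single nuclei was then measured. Of the WT early goblet nuclei with a Meg3 UMI, 82 of 159 also had Rian (51.6%), against 18 of 248 without Meg3 (7.26%). In HIF-1α KO the shares were 82 of 173 (47.4%) and 25 of 482 (5.19%). Detection of Rian thus went with detection of Meg3 in both libraries. Mirg was found in 52 of 159 WT nuclei with Meg3 against 1 of 248 without, and in 52 of 173 against 2 of 482 in HIF-1α KO. Given Rian, Mirg was found in 49 of 100 nuclei against 4 of 307 in WT and in 48 of 107 against 6 of 548 in HIF-1α KO. After thinning to 1000 UMIs, Rian remained in 67 of 124 WT nuclei with Meg3 (54.0%, 44.9 to 63.0) against 11 of 283 without (3.89%, 1.96 to 6.85), and in 48 of 107 (44.9%, 35.2 to 54.8) against 11 of 547 (2.01%, 1.01 to 3.57) in HIF-1α KO, so that the shares stayed apart at equal depth.

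The share with Rian rose with the Meg3 count. In WT early goblet nuclei it was 7.26% at 0 Meg3 UMIs, 11.4% at 1 to 2, 62.1% at 3 to 9, 91.1% at 10 to 29 and 100% (78.2 to 100) in the 15 nuclei with 30 or more. In HIF-1α KO it was 5.19%, 9.41%, 10 of 20 nuclei, 89.2% and 100% (88.8 to 100), the last in 31 nuclei. Nuclei with 1 to 2 Meg3 UMIs were close to those with none, with overlapping intervals of 5.07 to 21.3% against 4.36 to 11.2% in WT. Mirg went from 0.403% and 0.415% at 0 Meg3 UMIs to 93.3% and 87.1% at 30 or more. The bins differ in depth, with medians of 4069 and 6132 UMIs per nucleus at 30 or more Meg3 UMIs against 2350 and 4200 at 0. Among Meg3-high nuclei, 38 of 60 in WT and 48 of 68 in HIF-1α KO had UMIs of all 3 members.

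**Figure D3:**
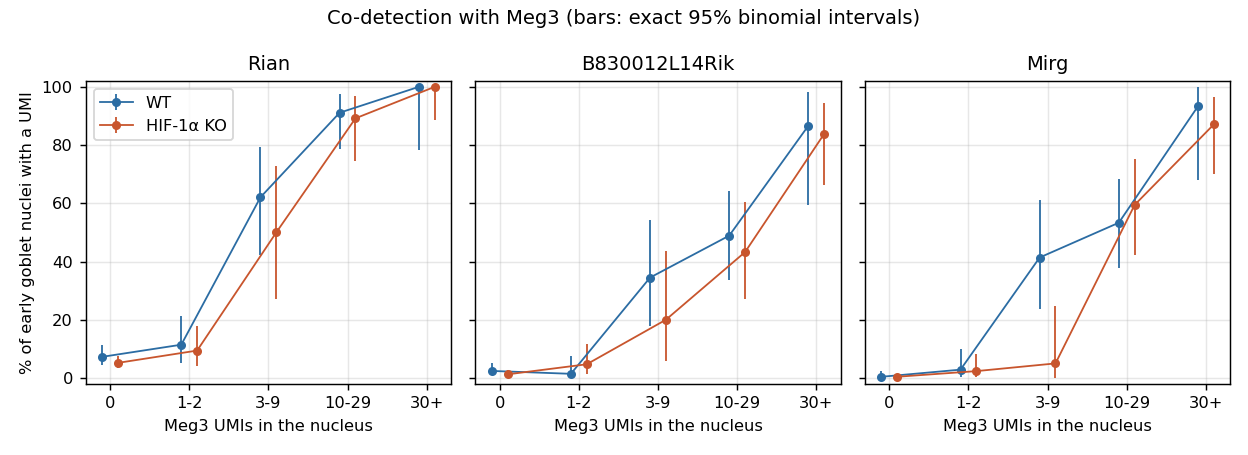
Percent of early goblet nuclei with at least 1 UMI of Rian, B830012L14Rik or Mirg, by the number of Meg3 UMIs in the same nucleus, in WT (blue) and HIF-1α KO (orange) with exact 95% binomial intervals. Rian is found in 7.26% and 5.19% of nuclei without Meg3 and in 100% of those with 30 or more Meg3 UMIs, and the other genes follow the same course.

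Co-detection was not limited to early goblet nuclei. In mature goblet nuclei Rian was found in 9.77% at 0 Meg3 UMIs and in 3 of 6 nuclei at 3 to 9 in WT. In HIF-1α KO it was found in 3.98% and in 6 of 13. Of 226 WT fibroblasts, 24 held Meg3 and Rian only, 8 all 3 members, 70 Meg3 alone and 14 Rian alone. Of 118 in HIF-1α KO these were 11, 3, 34 and 8. Crypt enterocytes, a class with little Meg3, served as the background. Rian was found there in 3 of 60 WT nuclei with a Meg3 UMI (5.00%) and in 11 of 223 without (4.93%), and in HIF-1α KO in 4 of 71 (5.63%) and 22 of 383 (5.74%), so that the shares with and without Meg3 were close. Meg3 itself had a UMI in 21.2% of these nuclei in WT and 15.6% in HIF-1α KO, at median depths of 2248 and 3804 UMIs, against 39.1% and 26.4% of early goblet nuclei at 2289 and 4229 UMIs. B and plasma cell-like nuclei, at 1487.5 and 1819 UMIs, had a Meg3 UMI in 21.9% and 18.1%. Meg3 UMIs were thus found in every named class. Early goblet nuclei stood apart from crypt enterocytes and B and plasma cell-like nuclei by nuclei with many Meg3 UMIs rather than by those with 1 to 2. Such nuclei were also found in other classes, as given above.

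The make-up of the 3 transcripts differed between early goblet nuclei and neurons. The UMIs are not scaled to transcript length, so shares are compared between nuclei and not between genes. Meg3 made up 77.2% (75.5 to 78.9) of the UMIs of the 3 members in WT early goblet nuclei and 79.7% (78.3 to 81.0) in HIF-1α KO, against 88.7% (87.1 to 90.2) and 85.2% (83.6 to 86.7) in neurons. The intervals of early goblet nuclei and neurons were separate in both libraries, by a wider margin in WT. Mature goblet nuclei had 75.9% (69.7 to 81.3) in WT, separate from neurons. In HIF-1α KO they had 82.9% (79.1 to 86.2), which overlapped the interval of neurons. In the enterocyte and crypt base stem-like classes together Meg3 made up 282 of 376 UMIs in WT (70.3 to 79.3%) and 337 of 456 in HIF-1α KO (69.6 to 77.9%), of which the WT interval overlapped that of early goblet nuclei and the HIF-1α KO interval lay just below it.

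The share was also taken within single nuclei. The median Meg3 share over Meg3-high early goblet nuclei was 79.2% in WT, with quartiles of 70.6 and 85.3%, and 80.2% in HIF-1α KO, with quartiles of 74.0 and 89.2%. Meg3-high neurons had 89.6% with quartiles of 87.0 and 92.1%, and 86.5% with quartiles of 82.5 and 90.3%. In WT the quartile ranges of these classes were separate, and in HIF-1α KO they overlapped. The Meg3-high mature goblet nuclei, 3 in WT and 11 in HIF-1α KO, had medians of 84.2% and 90.9%.

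The libraries differed in the level of all 3 members in early goblet nuclei. On the log2 scale the CPM ratio of HIF-1α KO over WT was -0.85 (-0.94 to -0.77) for Meg3, -1.09 (-1.27 to -0.90) for Rian and -0.98 (-1.34 to -0.61) for Mirg. At least 2-fold lower were 1 of the 3 members, Rian, and 2.76% of the 8119 genes with 50 UMIs or more in this class, whose median log2 ratio was 0.07. Thinned to 1000 UMIs per nucleus, the ratios were -1.01 for Meg3, -1.08 for Rian and -1.53 for Mirg. No share of all genes was taken after thinning, so these ratios are given without a call. Counted per nucleus the difference was smaller, with 4.56 Meg3 UMIs in WT and 4.26 in HIF-1α KO, 1.07 and 0.847 Rian UMIs and 0.278 and 0.238 Mirg UMIs, while the depth of these nuclei was 2289 and 4229 UMIs. The lower level in HIF-1α KO was seen relative to the other RNA of these nuclei, with and without thinning.

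The ratio was further from 0 in early goblet nuclei that were not Meg3-high. In Meg3-high early goblet nuclei the Meg3 level was 8819.8 CPM in WT and 7044 CPM in HIF-1α KO, a log2 ratio of -0.32, and Rian and Mirg had ratios of -0.54 and -0.31. In the remaining early goblet nuclei the Meg3 level was 278 CPM (246 to 314) and 73.3 CPM (63.5 to 84.2), a log2 ratio of -1.92 (-2.20 to -1.65), and Rian had 75.1 and 17.6 CPM with a ratio of -2.09. These groups were set by the Meg3 count itself, and 10 UMIs are a smaller share of a deeper nucleus. Enterocytes and crypt base stem nuclei, in which the Meg3 counts per nucleus were 0.287 in WT and 0.235 in HIF-1α KO, also had a lower Meg3 level in HIF-1α KO, with 89.7 against 42.1 CPM and a log2 ratio of -1.09 (-1.32 to -0.86).

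Other classes did not move alike. Of the 11 named classes with at least 50 nuclei in both libraries, Meg3 had a ratio whose interval lay below 0 in 6 (early goblet, crypt enterocyte, surface enterocyte, crypt base stem, cycling and enteroendocrine) and above 0 in none. For Rian the interval lay below 0 in 5, among them mature goblet nuclei (-0.81, -1.40 to -0.22), and for Mirg only in early goblet nuclei. Neither had an interval above 0. No share of all genes with such intervals was taken, so these counts are a description. The Meg3 interval spanned 0 in fibroblasts (0.14, -0.17 to 0.45), smooth muscle (-0.08, -0.45 to 0.27) and mature goblet nuclei (-0.22, -0.48 to 0.05), among others. In HIF-1α KO, 11 Meg3-high nuclei held 64.7% of the Meg3 UMIs of mature goblet nuclei. Without Meg3-high nuclei, mature goblet nuclei had 129 CPM (104 to 158) in WT and 73.7 CPM (61.7 to 87.3) in HIF-1α KO. Smooth muscle then had 250 CPM (213 to 291) and 156 CPM (121 to 198). Fibroblasts had 328 CPM (281 to 381) and 277 CPM (224 to 340). A limit of 10 UMIs is more easily reached in the deeper library. At least 2-fold lower was Meg3 in crypt base stem and crypt enterocyte nuclei, beside 2.13% and 2.06% of the genes tested in those classes, and Rian in cycling nuclei, beside 1.99%, as well as in early goblet nuclei. Neurons, with fewer than 50 nuclei, had ratios of -0.13 for Meg3, 0.34 for Rian and 0.24 for Mirg, and mesothelial nuclei, with 18 and 13, had 0.70 (0.17 to 1.23) for Meg3. Over all nuclei the ratios were -0.57, -0.71 and -0.68, none of them 2-fold, beside 7.21% of 14393 genes at least 2-fold lower.

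**Figure D4:**
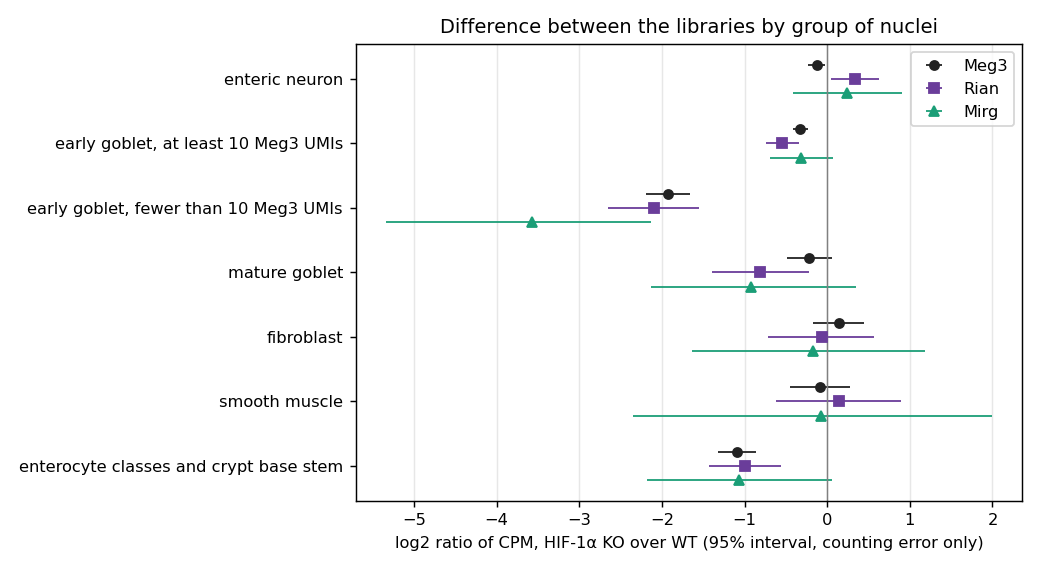
Log2 ratio of CPM in HIF-1α KO over WT for Meg3 (circles), Rian (squares) and Mirg (triangles) in 7 groups of nuclei, with 95% intervals for counting error only. Early goblet nuclei with fewer than 10 Meg3 UMIs lie lowest, at -1.92 for Meg3, while Meg3-high early goblet nuclei lie at -0.32 and the Meg3 intervals of fibroblasts, smooth muscle and mature goblet nuclei span 0.

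Meg3-high early goblet nuclei carried goblet markers and few neuronal ones. Their clusters were named by these same marker lists, so the sums describe the nuclei and do not test the name. The 13 goblet markers summed to 13011 CPM in Meg3-high against 9764 CPM in Meg3-zero nuclei in WT and to 10678 against 10806 CPM in HIF-1α KO, so that their sum was higher in WT and close in HIF-1α KO. The 10 enteric neuron markers summed to 44.4 CPM in WT and 24.5 CPM in HIF-1α KO Meg3-high nuclei, with 5 of the 10 at 0 UMIs in each library, against 54.8 and 30.9 CPM in nuclei with 0 Meg3 UMIs and 5314 and 6331 CPM in neurons. Muc2, the gel-forming mucin of goblet cells, had 5501 against 3159 CPM in WT and 4164 against 2906 CPM in HIF-1α KO. Spdef, a factor of goblet maturation, had 544 against 365 CPM and 522 against 375 CPM. Clca1 was lower in the Meg3-high nuclei, with 216 against 313 CPM and 204 against 638 CPM, as was Fcgbp, a mucus protein, with 1049 against 1492 CPM and 1033 against 1869 CPM. The intervals of the ratio lay below 0 in HIF-1α KO only for Reg4 (78.9 against 138 CPM), Tff3 (21.8 against 55.0 CPM) and Zg16 (408 against 575 CPM), and spanned 0 for these in WT. Cluster was not held fixed in this comparison. Cluster 9 held 53.3% and 70.6% of the Meg3-high nuclei, but 69 of 248 and 192 of 482 Meg3-zero nuclei. In HIF-1α KO Clca1 was 208 CPM in cluster 9 and 1230 CPM in cluster 14. How far the marker differences follow the cluster mix was not tested.

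Genes other than the members were compared between Meg3-high and Meg3-zero early goblet nuclei, again without holding cluster fixed. With 10 CPM added to both levels, 7 of 3624 other genes with 50 UMIs or more in these nuclei of each library were at least 2-fold higher in both libraries and 0 were at least 2-fold lower. Without the added CPM and over the 11846 genes with 50 UMIs or more in each whole library, which lets in genes with few UMIs in these nuclei, 116 genes (0.979%) were higher and 108 (0.912%) lower by the same 2-fold limit, so that the count depends on these settings. The genes named here were taken from the first of these counts after their values were seen. B830012L14Rik, the neighbour between Rian and Mirg, led with 599 against 8.43 CPM in WT and 438 against 2.68 CPM in HIF-1α KO. The next were Fstl4, a follistatin-like protein, with 222 against 82.9 CPM and 394 against 103 CPM, Pex5l, a regulator of ion channels, with 211 against 35.1 CPM and 228 against 91.2 CPM, and Cacna1d, a voltage-gated calcium channel, with 183 against 39.3 CPM and 112 against 45.2 CPM. Ptprt, a receptor phosphatase, had 366 against 166 CPM and 672 against 159 CPM.

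The looser split of all goblet nuclei by at least 1 UMI of any member against none gave 1 of 5657 other genes at least 2-fold higher in both libraries. It was again B830012L14Rik, with 153 against 7.63 CPM in WT and 123 against 2.63 CPM in HIF-1α KO. By the size of their smaller ratio the next 4 were Col8a1, Fstl4, 9530036O11Rik and Ptprt, of which Fstl4 had 132 against 69.7 CPM and 185 against 105 CPM.

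**Figure D5:**
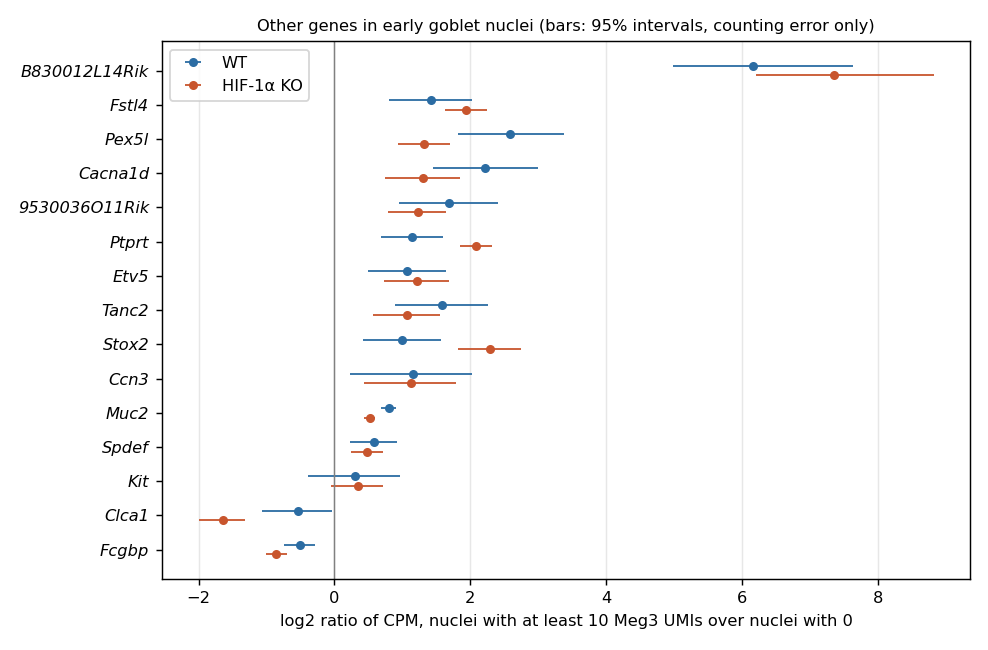
Log2 ratio of CPM in early goblet nuclei with at least 10 Meg3 UMIs over those with 0, in WT (blue) and HIF-1α KO (orange), with 95% intervals for counting error only. The upper 10 genes were ranked by their smaller ratio with 10 CPM added, so that their place is part of the choice, and 5 goblet markers follow. B830012L14Rik stands far to the right at 599 against 8.43 CPM in WT, Muc2 lies above 0 and Clca1 below.

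Across 29 sums of a class and library, the members were closest to each other by Pearson correlation. The correlation of log2(CPM + 10) was 0.95 between Meg3 and Mirg, 0.93 between Meg3 and Rian and 0.93 between Rian and Mirg, and B830012L14Rik followed each of them at 0.90, 0.89 and 0.91. Next came neuronal genes, Gabrg3, a GABA receptor subunit, at 0.85 and Cntnap5a at 0.83 with Meg3, Garnl3 at 0.84 and Nlgn1, a synaptic adhesion protein, at 0.82 with Rian, and Dlgap1 at 0.80 and Gabrg3 at 0.80 with Mirg. The profiles share libraries and depth and the neuron sums are far above the rest, so the values are a description over 10970 genes. By Spearman correlation the order differed, with Khdrbs3 at 0.83 above Rian at 0.81 and Mirg at 0.80 for Meg3, and neither Rian nor Mirg was among the 5 genes closest to the other.

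Other genes listed for the imprinted region and its surroundings were counted next. Of 13 genes on this list that are no members, 7 had at least 50 UMIs in both libraries. Dlk1, Rtl1 and Dio3, the imprinted protein-coding genes named above, fell short of that limit and are not among the 7. The values of the 7 therefore do not describe those imprinted genes. Of the 7, 1 was at least 2-fold higher in early goblet than in other epithelial nuclei in both libraries. It was Wars, a tRNA synthetase, with 114 and 126 CPM against 56.3 and 56.5 CPM. The median log2 ratio of the 7 was 0.06 in WT and 0.13 in HIF-1α KO, beside -0.06 and 0.02 over all 11846 genes tested. In Meg3-high against Meg3-zero early goblet nuclei 0 of the 7 were higher and 1, Evl, an actin regulator, was lower, on 1 and 3 UMIs in the Meg3-high nuclei.

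The paternally expressed neighbours had few UMIs. Dlk1, a Notch-related surface protein, had 18 UMIs in WT and 16 in HIF-1α KO in all nuclei. In WT it was found in 5 of 60 Meg3-high early goblet nuclei (8.33%, 2.76 to 18.4) on 7 UMIs and in 1 of 248 with 0 Meg3 UMIs (0.403%, 0.0102 to 2.23) on 2 UMIs, and these intervals were separate. In HIF-1α KO it was found in 1 of 68 (1.47%, 0.0372 to 7.92) on 3 UMIs and in 1 of 482 (0.207%, 0.00525 to 1.15) on 2 UMIs, with overlapping intervals. Rtl1, a retrotransposon-derived protein on the minus strand between Meg3 and Rian, had 3 and 16 UMIs. Rtl1 had 0 UMIs in both groups of early goblet nuclei in WT, whereas in HIF-1α KO it was found in 4 of 68 Meg3-high nuclei (5.88%, 1.63 to 14.4) on 6 UMIs and in 1 of 482 with 0 Meg3 UMIs (0.207%, 0.00525 to 1.15) on 1 UMI, with separate intervals. Dio3, a thyroid hormone deiodinase, had 0 and 2 UMIs. Dlk1 and Rtl1 were thus each more often detected in Meg3-high nuclei in 1 of the 2 libraries, on at most 7 UMIs.

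Imprinted genes elsewhere and other long noncoding RNAs gave single exceptions. Of 41 imprinted genes outside the region, 24 could be compared, and 1 was at least 2-fold higher in early goblet than in other epithelial nuclei in both libraries and 1 lower. The former was Airn, a noncoding RNA of the Igf2r region, with 830.2 against 338 CPM in WT and 1504 against 557 CPM in HIF-1α KO, and the latter Peg3, with 5 UMIs in early goblet nuclei of each library. Of 11 other nuclear long noncoding RNAs, Pvt1 was higher with 122 and 106 CPM against 42.5 and 22.6 CPM and Miat lower, on 2 UMIs and 1 UMI. The medians of these lists were 0.19 and 0.27 for imprinted genes and 0.23 and 0.04 for noncoding RNAs, and 2.57% of all genes tested were higher and 6.43% lower by the same limits. Between Meg3-high and Meg3-zero early goblet nuclei 0 genes of either list were 2-fold apart in both libraries, beside the 0.979% and 0.912% of all genes given above. Malat1, an abundant nuclear RNA, had 26049 against 23220 CPM in WT, and Neat1, the scaffold of paraspeckles, 5984 against 4635 CPM.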

How the data were processed

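Single-nucleus RNA sequencing (10x Genomics Chromium Single Cell 3′ v3.1) of 2 libraries, WT and HIF-1α KO, gave the UMI counts deposited by the authors, made with Cell Ranger 7.0.1 on mm10, without normalization. Whether intronic reads were counted is not given in the sources used here. Nuclei with 400 to 5000 genes and at most 10% mitochondrial UMIs were kept (4884 of 4896 and 4702 of 4772). Libraries were integrated with Seurat 5.3.0 in R 4.3.3 (2000 variable features, 30 components, resolution 2), leaving out the genes of the Dlk1-Dio3 transcripts, and clusters were named by the class with the highest mean marker ratio when at least 3 of its markers passed a log2 ratio of 1 with at least 10% of nuclei positive and no other class had more markers among the 10 leading genes. Cluster 27, of 24 and 10 nuclei, met this for fibroblasts but was left unnamed by hand, as its leading genes held no fibroblast marker. Goblet clusters were called early where the early list had a higher mean log2 ratio against the other goblet nuclei than the mature list. Scrublet (scanpy 1.11.5) marked 1 nucleus of 9586, too few to be of use, and only the upper limit on genes acts on doublets.

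UMIs were summed per class and library as CPM, with exact Poisson, binomial or conditional intervals at the 95% level (scipy 1.17.1 in Python 3.11.15), and no test was run between 2 single libraries. A gene was called at 2-fold with 50 UMIs or more in both libraries together, or, for the lists, 50 in each. Thinning kept 1000 UMIs per nucleus and left out shallower nuclei. Named genes are the members, the detected genes of the lists, the 5 genes most like each member by correlation over sums of at least 20 nuclei among genes with at least 200 UMIs, and the 5 with the highest smaller ratio between goblet nuclei with and without a member UMI. Genes of the contrast of Meg3-high against Meg3-zero nuclei, such as Pex5l and Cacna1d, were named after their values were seen. The limit of 10 Meg3 UMIs and B830012L14Rik were added after seeing values. The members, lists and rules were chosen with earlier results of these data known. The calculation of ratios and calls was tested on simulated data. Alternatives covered the nuclei kept, integration, resolution, assignment, thinning, weighting, doublets and detection limits.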

Additional observations from a re-analysis of the deposited data

How the results depend on the processing

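No paired analysis was possible because there is 1 library per genotype, and leaving out a replicate was not possible for the same reason. Of 201 values recomputed, 144 stayed within their counting interval, 57 moved beyond it and 0 changed sign. Only the log2 ratios among them could change sign, as levels, shares and counts of genes cannot fall below 0. Leaving out the Scrublet call, resolution 1 and leaving out goblet cluster 12 moved none of their 23, 23 and 3 values. Several alternatives differ in the nuclei that count as early goblet, and the cause of each shift was not tested.

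With all deposited barcodes, Meg3 in early goblet nuclei was 1881 CPM in WT and 940.3 CPM in HIF-1α KO, Rian in WT 432 CPM, the log2 ratio of the libraries for Meg3 -1.0002, and its log2 ratio over other epithelial nuclei 3.75 and 3.25. Without integration, Meg3 in HIF-1α KO was 835 CPM and its ratio over other epithelial nuclei 3.35 in both libraries. Assigning each nucleus by its own marker score gave Meg3 1967 and 1043 CPM, Rian 497 and 223 CPM, Mirg 63.7 CPM in HIF-1α KO, ratios over other epithelial nuclei of 3.25 and 3.17 for Meg3 and 3.29 for Mirg in WT, and 0% Mirg among WT nuclei without Rian. Weighting nuclei equally gave Meg3 1723 CPM in WT and a library ratio of -0.96.

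Thinning to 1000 UMIs gave Meg3 1705 and 844 CPM, Mirg 38.2 CPM in HIF-1α KO, library ratios of -1.01 for Meg3 and -1.53 for Mirg, and 3.91 for Rian over other epithelial nuclei in HIF-1α KO. The thinned shares of Rian nuclei with Mirg were 30.8% and 27.1%, and those of nuclei without Meg3 that had Rian 3.89% and 2.01%. Counting a gene as detected from 2 UMIs gave 63.5% of HIF-1α KO Meg3 nuclei with Rian, 30.5% of WT Rian nuclei with Mirg, 0.658% and 0.358% of nuclei without Meg3 with Rian, and 0.169% of HIF-1α KO nuclei without Rian with Mirg.

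Chosen after seeing the data, leaving out Meg3-high nuclei took Meg3 to 278 and 73.3 CPM, Rian to 75.1 and 17.6 CPM and Mirg to 21.9 and 1.83 CPM, with library ratios of -1.92, -2.09 and -3.58. Meg3-high shares were 7.86% and 6.72% at 20 UMIs, 20.4% in WT at 5 UMIs, and 6.42% in HIF-1α KO at 5 thinned UMIs. The mean Meg3 share over single Meg3-high nuclei was 79.0% in WT early goblet nuclei and 90.5% and 86.8% in neurons. By Spearman correlation 2, 1 and 1 of the 5 most similar genes of Meg3, Rian and Mirg remained, and 2, 2 and 3 among genes with at least 1000 UMIs.

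Depth limits Mirg most, since its class levels outside goblet nuclei and neurons rest on at most 17 UMIs.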
